A study of Mus musculus with 9 samples.

Results

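The genes described here are Myc, its relative Mycn, their partner Max and 31 genes of ribosome biogenesis, 34 of the 16428 genes in the deposited table. They were taken by gene symbol (GENCODE M21), and all 34 had a mean of at least 10 normalized read counts over the 9 libraries, so all 34 entered the tests. The cells were mouse embryonic fibroblasts, cultured connective tissue cells, with the genotype CARM1f/f ER-Cre: both copies of Carm1, an arginine methyltransferase gene, are floxed, and a Cre recombinase is fused to an estrogen receptor domain. WT is the name of the untreated cells of that genotype, KO of the cells given 2 uM 4-OHT (4-hydroxytamoxifen) for 6 days, and CARM1i of the cells given 1 uM of the CARM1 inhibitor TP-064 for 6 days. Each group has 3 libraries. No group had 4-OHT without a floxed gene and none is labelled as vehicle-treated, so 4-OHT cannot be told apart from the deletion, nor a vehicle from the inhibitor. The labels do not say that replicates were separate cultures, so the spread that p-values rest on may be technical.

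Myc and Max form a dimer that binds the E-box motif CACGTG and raises transcription of growth genes, among them many that build ribosomes. In the nucleolus RNA polymerase I transcribes the ribosomal RNA precursor, small nucleolar ribonucleoproteins (snoRNPs) guide its chemical modification, and assembly factors fold and cleave it into the small and large ribosomal subunits. Dividing fibroblasts in culture make ribosomes at a high rate, and output of this pathway follows their growth.

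Libraries held 28657018 to 35842771 recovered reads. CARM1i replicate 3 lay apart from the other CARM1i libraries on the third principal component (19.5 against -11 and -11.7), and WT replicate 3 was at -10.3 there with the other WT libraries at 5.68 and 8.65. Calls of the 34 genes that change without either of them are given beside the gene. Carm1, the targeted gene, measured 1079, 1143 and 1091 in WT, 794, 711 and 769.8 in KO and 1112, 1072 and 986 in CARM1i. KO stood at 68.7% of WT (limma adjusted p = 5.493e-07). These counts cover the whole gene and do not check the deletion of its floxed part. All 8 fibroblast markers were present, with a summed normalized count of 366126 to 373621 in WT, 338240 to 355660 in KO and 343563 to 373090 in CARM1i. In KO 6 of the 8 fell and 2 rose, with Col3a1 and Col1a1 at -1.27 ± 0.062 and -0.94 ± 0.063 on the log2 scale. Of 6 macrophage markers 4 were analysed here and summed to 253 to 318 in WT, 292 to 334 in KO and 294 to 323 in CARM1i, without Ptprc and Adgre1. The 4 endothelial markers summed to 166 to 213, 243 to 294 and 234 to 263, and 4 of 5 neural markers to 7522 to 7861, 5860 to 6186 and 5783 to 6568. Krt18, the only one of 4 epithelial markers analysed, was at 23.3 to 48, 91.9 to 126 and 32.4 to 43.8, and Acta1, the only one of 4 muscle markers analysed, at 142 to 159, 205 to 251 and 91.5 to 174. The markers left out had no row to analyse, so their levels are not known here. Besides Ptprc and Adgre1 they were Sox2 (neural), Epcam, Cdh1 and Krt8 (epithelial), and Myod1, Myog and Des (muscle). Single markers moved within these sums (limma, adjusted p under 0.05). In KO Krt18, Acta1, the macrophage marker Cd68 (202% of WT) and the endothelial marker Egfl7 rose. The macrophage marker Cd14 (74.1% of WT) and the neural markers Tubb3 (32.9%), Nes (51.1%) and Ncam1 (80%) fell. Ncam1, at a mean of 7097 in WT, made up most of the neural sum. In CARM1i Egfl7 rose, and Nes and Ncam1 fell. The part of these cells in the results was not tested.

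After 4-OHT, 13 of the 34 genes fell and 5 rose against WT, and all but Mycn changed by less than 1.5-fold. The falls were those of Mycn, the polymerase I genes Ubtf, Polr1b and Polr1e, the snoRNP genes Fbl, Nop56, Nop58, Dkc1 and Gar1, the nucleolar genes Npm1 and Mybbp1a, and the small-subunit genes Utp20 and Rrp12. Max, Rrn3, Rrp9, Nop10 and Wdr12 rose. Of 14560 tested genes, 20.5% fell and 21.4% rose (limma, adjusted p under 0.05), beside 38.2% and 14.7% of the 34. With the inhibitor 5 of the 34 fell, where 8.59% of all genes fell and 10.5% rose. None of the 34 rose there by limma, edgeR or DESeq2, with 2 higher at an unadjusted p under 0.05. A bulk library cannot tell fewer cells of a type from less RNA per cell. The median log2 fold change of the 34 was -0.071 in KO and -0.063 in CARM1i, beside -0.0043 and -0.0047 over all genes tested. Without regard to sign, the median change of the 34 was smaller than that of all genes tested. It was 0.14 beside 0.18 in KO and 0.072 beside 0.11 in CARM1i. Most of the 34 were more abundant than the median tested gene, and none of these comparisons was matched for abundance. Called or not, 1872 of the 14560 tested genes had an estimate of at least 1.5-fold in KO and 680 in CARM1i. Of the 34, 1 and 0 did. Counting only genes also called (limma, adjusted p under 0.05), the numbers were 1436 and 281, beside 1 and 0 of the 34.

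As a level per kb of exon, averaged over the 9 libraries, Npm1 was highest at 6314 normalized counts and Mycn lowest at 22.4. The median of the 34 was 530, that of all tested genes was 149, and 30 of the 34 lay above the latter. Myc, at 527 per kb, was far more abundant than Mycn, and Max was at 332. In the plot of levels per exon length, the 3 groups lie close together for each gene except Mycn.

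**Figure D1:**
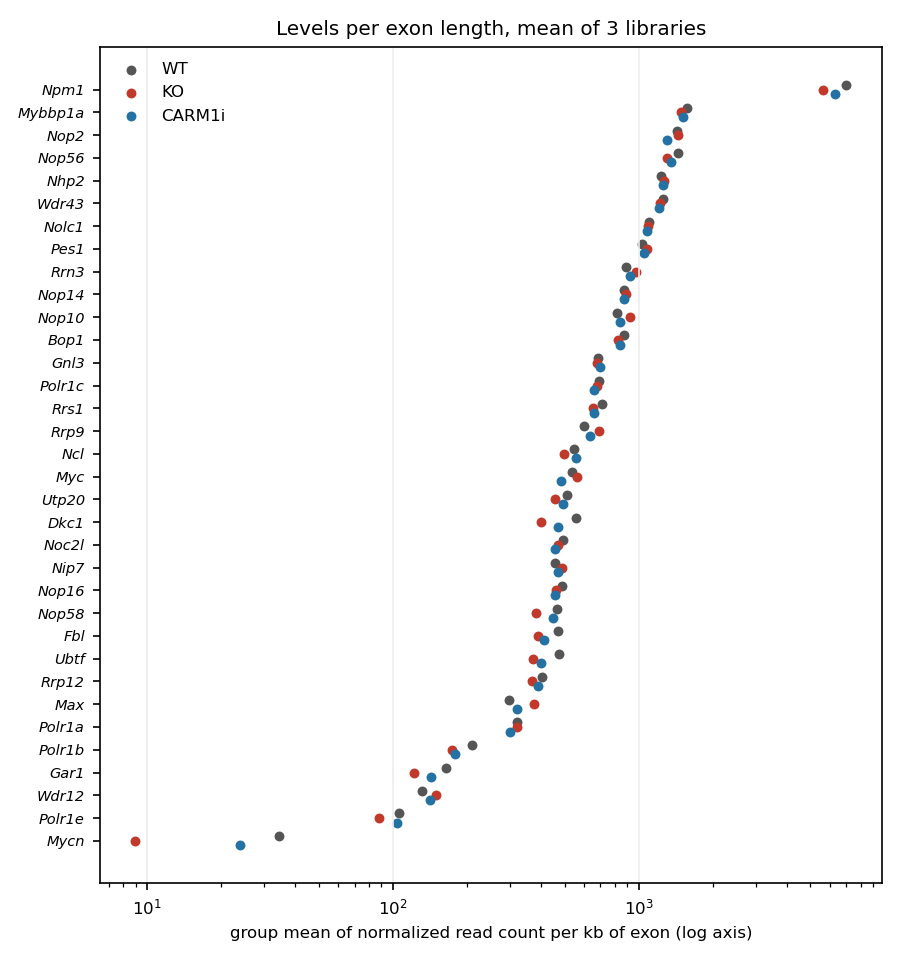
Group mean of the normalized read count per kb of exon (horizontal log axis) for the 34 genes, ordered by their mean over 9 libraries; each point is the mean of 3 libraries in WT (grey), KO (red) or CARM1i (blue). Npm1 stands highest and Mycn lowest, and Mycn has the widest gap between groups.

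Mycn fell most. Mycn encodes a Myc family factor best known from embryonic tissue and neuroblastoma (ENSMUSG00000037169.15, chromosome 12, 12936093 to 12941914, mm10). Its normalized counts were 123, 105 and 112 in WT, 36.7, 24.2 and 27.7 in KO and 75.9, 93.4 and 67.3 in CARM1i. The 3 KO libraries lay far below the WT libraries, and the CARM1i libraries lay between, overlapping neither. Mean counts were 113 ± 9.27 in WT and 29.5 ± 6.48 in KO (SD, n = 3), so that KO kept 26% of the WT level, a log2 fold change of -1.92 ± 0.19 (SE, limma adjusted p = 2.759e-07). In CARM1i the mean was 78.9 ± 13.3 and the log2 fold change -0.53 ± 0.19, which missed the threshold (adjusted p = 0.06883). It passed in CARM1i with edgeR on recovered reads, with a pseudocount of 10, with only the compared groups in the fit, and without KO replicate 1 or CARM1i replicate 2, with adjusted p-values from 0.0381 to 0.207 over all alternatives. CARM1i was higher than KO by 1.40 ± 0.19 (adjusted p = 3.824e-05).

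Myc itself (ENSMUSG00000022346.15, chromosome 15, 61985391 to 61990374) measured 1406, 1451 and 1527 in WT, 1546, 1476 and 1547 in KO and 1234, 1259.9 and 1436 in CARM1i. WT and KO libraries overlapped, and 2 of the 3 CARM1i libraries lay below all WT libraries while replicate 3 lay among them. The difference between KO and WT was 0.060 ± 0.055 (limma adjusted p = 0.4092). In CARM1i the log2 fold change was -0.16 ± 0.055 (adjusted p = 0.05168), and it passed when fitted without CARM1i replicate 3, with a mean filter of 50, rescaled to a common total or with the replicate block (lowest adjusted p = 0.0023). Myc was lower in CARM1i than in KO, at -0.22 ± 0.055 (adjusted p = 0.006921), and this call ended without the intensity trend (adjusted p = 0.0556).

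Max, the shared partner of the Myc and Mxd families, had the largest rise of the 34 in KO. It (ENSMUSG00000059436.13, chromosome 12, 76937269 to 76962201) measured 1041, 1102 and 1075 in WT, 1328, 1308 and 1436 in KO and 1131, 1187 and 1151 in CARM1i. All KO libraries lay above all others. The KO mean of 1357 ± 68.5 stood against 1073 ± 30.4 in WT, a log2 fold change of 0.34 ± 0.049 (limma adjusted p = 1.979e-05). CARM1i was at 0.11 ± 0.049 against WT (adjusted p = 0.1424) and at -0.23 ± 0.049 against KO (adjusted p = 0.001984).

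**Figure D2:**
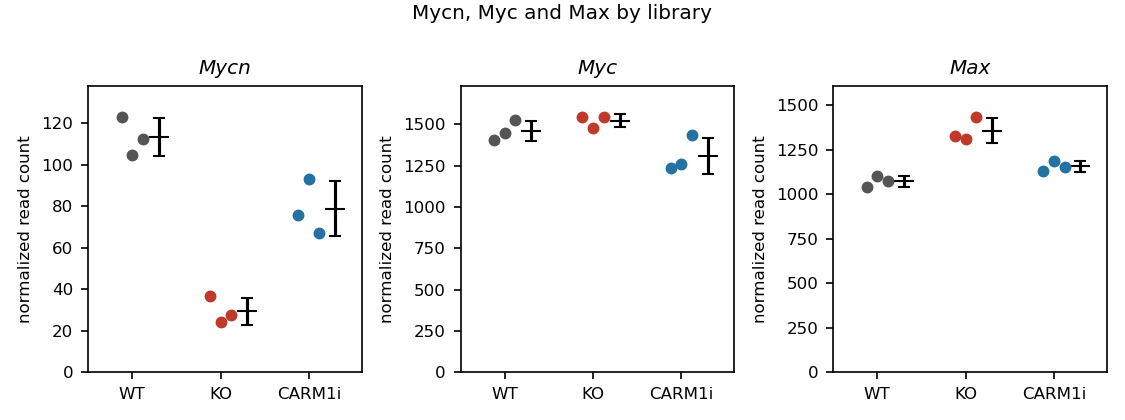
Normalized read count (vertical axis, from 0) of Mycn, Myc and Max in each of the 9 libraries, with the group mean and SD (n = 3) beside the points. Mycn drops from 105 to 123 in WT to 24.2 to 36.7 in KO, Myc overlaps between WT and KO, and Max is highest in the KO libraries.

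The E-box was searched in the promoters of the 34 genes because it is the site Myc and Max bind. The RefSeq table (GRCm38.p6) held windows of 300 bases, 250 before and 50 after the start, for 28 of them, 36 windows in all. CACGTG, which reads the same on both strands, was in at least 1 window of 7 of the 28 genes (25%), beside 11.6% of 10296 tested genes with a window. Per window the shares were 19.4% here and 7.15% over all promoters. The variant CACGCG, searched on both strands and free to overlap CACGTG, was found for 11 of the 28 genes (39.3%) and 19.9% of the tested genes. Genes with several windows had more chances of a match, and base composition was not matched. The 8 matches to CACGTG are shown in the gene's own orientation with the motif in capitals, at most 12 bases either side and cut at the window's end, and its first base counted from the start (position 1):
Max (chr12:76962234-76962263, - strand, motif at -3): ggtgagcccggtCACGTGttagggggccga
Mybbp1a (chr11:72441355-72441376, + strand, motif at 41): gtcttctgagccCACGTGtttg
Nop2 (chr6:125131811-125131840, + strand, motif at -60): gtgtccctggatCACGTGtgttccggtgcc
Pes1 (chr11:3963965-3963994, + strand, motif at 3): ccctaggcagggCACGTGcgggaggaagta
Rrn3 (chr16:13780472-13780501, + strand, motif at -215): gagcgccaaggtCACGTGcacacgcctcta
Rrn3 (chr16:13780639-13780668, + strand, motif at -48): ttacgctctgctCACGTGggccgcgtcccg
Utp20 (chr10:88826765-88826789, - strand, motif at 38): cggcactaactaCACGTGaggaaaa
Wdr43 (chr17:71616220-71616249, + strand, motif at 18): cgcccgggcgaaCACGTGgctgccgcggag
Of the 7 genes, Utp20 and Mybbp1a fell in KO, Max and Rrn3 rose, and Nop2, Pes1 and Wdr43 were not called. Of all tested genes 20.5% fell and 21.4% rose there. Among members with a window, CACGTG was found for 2 of 10 that fell, 2 of 5 that rose and 3 of 13 not called. Whether the motif goes with a call was not tested. A match is not a measured binding site.

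The polymerase I genes split. Of 6, Ubtf, Polr1b and Polr1e fell in KO and Rrn3 rose (50% and 16.7%, beside 20.5% and 21.4% of all tested genes). The median log2 fold change of the 6 was -0.15. Ubtf encodes the factor that opens ribosomal DNA and recruits the polymerase (ENSMUSG00000020923.17, chromosome 11, 102304560 to 102319742). It measured 3198, 3099.8 and 3060.2 in WT, 2426, 2349 and 2551 in KO and 2529, 2723 and 2622 in CARM1i. Every treated library was below every WT library. Ubtf fell by 0.35 ± 0.041 on the log2 scale in KO (limma adjusted p = 1.322e-06) and by 0.25 ± 0.041 in CARM1i (adjusted p = 0.0002423), and both calls held under all 20 alternatives. The gap between CARM1i and KO was 0.10 ± 0.041 (adjusted p = 0.07388), which passed without KO replicate 3 or CARM1i replicate 1.

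Polr1b, the second largest subunit (ENSMUSG00000027395.15, chromosome 2, 129100995 to 129126594), measured 1257, 1330.1 and 1086 in WT, 999.6, 1034 and 995 in KO and 982, 993 and 1141 in CARM1i. All KO libraries lay below WT, and CARM1i replicate 3 lay within the WT range. Its log2 fold change was -0.27 ± 0.070 in KO (limma adjusted p = 0.004033) and -0.24 ± 0.070 in CARM1i (adjusted p = 0.02408). The CARM1i call ended in 6 alternatives: no intensity trend, a fit of WT and CARM1i alone, and leaving out WT replicate 1 or 2 or CARM1i replicate 1 or 2. Polr1e, a subunit that helps the polymerase engage the promoter, measured 395, 414 and 427 in WT, 351, 331 and 347 in KO and 387, 426 and 405 in CARM1i. The KO libraries lay below all others, at -0.26 ± 0.074 against WT (adjusted p = 0.007886), while CARM1i was at -0.022 ± 0.074 (adjusted p = 0.883). CARM1i exceeded KO by 0.24 ± 0.074 (adjusted p = 0.02421), a call that ended with quantile normalization and without KO replicate 2 or 3 or CARM1i replicate 2.

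Rrn3, the initiation factor that couples polymerase I to growth signals (ENSMUSG00000022682.8, chromosome 16, 13780708 to 13814839), went against its group. It measured 3968, 3742 and 3787 in WT, 4291, 4115 and 4273 in KO and 3983, 4029 and 3986 in CARM1i. KO lay above WT in every library, with a log2 fold change of 0.14 ± 0.034 (limma adjusted p = 0.00253), and CARM1i was at 0.062 ± 0.034 (adjusted p = 0.232). The largest subunit gene Polr1a was at -0.0027 ± 0.042 and -0.10 ± 0.042 in KO and CARM1i, and Polr1c, a subunit shared with polymerase III, at -0.030 ± 0.059 and -0.064 ± 0.059. Neither passed in any of the 3 comparisons. Polr1a passed in CARM1i against WT with quantile normalization and without WT replicate 3 or CARM1i replicate 3, and without the latter in CARM1i against KO too.

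**Figure D3:**
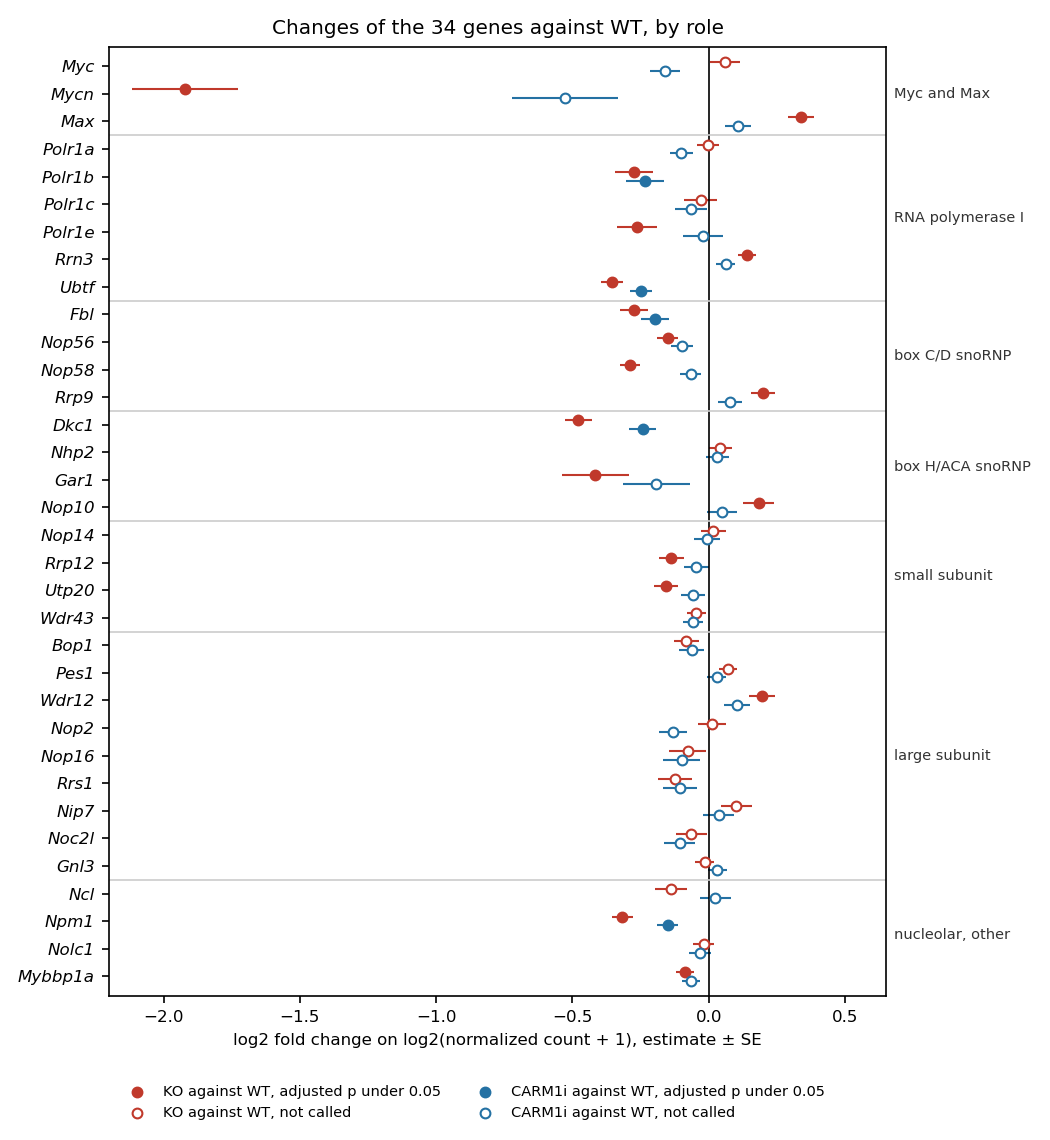
Log2 fold change against WT on the log2(normalized count + 1) scale (horizontal axis, estimate and SE) of the 34 genes by role, for KO (red) and CARM1i (blue); filled points passed an adjusted p of 0.05. Apart from Mycn all estimates lie between -0.48 and 0.34, with filled points on the left mainly among the polymerase I and snoRNP genes and 1 filled point among the 9 large-subunit genes.

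Box C/D snoRNPs place methyl groups on the ribose of ribosomal RNA. Their 3 core protein genes of the list fell in KO, 75% of the 4 box C/D genes beside 20.5% of all tested genes. Fbl encodes fibrillarin, the methyltransferase of the particle (ENSMUSG00000046865.7, chromosome 7, 28169710 to 28179269), and measured 1978, 2152 and 1826 in WT, 1673, 1611 and 1629 in KO and 1725, 1677 and 1786 in CARM1i. All treated libraries were below all WT libraries. Fbl fell by 0.27 ± 0.051 on the log2 scale in KO (limma adjusted p = 0.0002969) and by 0.20 ± 0.051 in CARM1i (adjusted p = 0.0115), the latter call ending without the intensity trend or without WT replicate 2. The scaffold gene Nop58 (ENSMUSG00000026020.9, chromosome 1, 59684971 to 59719044) measured 5202, 5163 and 4732 in WT, 4222, 4091 and 4036 in KO and 4693, 4818 and 4907 in CARM1i. KO was lowest in every library, at -0.29 ± 0.038 (adjusted p = 7.416e-06). CARM1i was at -0.065 ± 0.038 against WT (adjusted p = 0.2687, and 0.0442 without WT replicate 3) and 0.22 ± 0.038 above KO (adjusted p = 0.0003061).

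Nop56, the partner of Nop58 in the same core, measured 6154, 5991 and 5611 in WT, 5359, 5400.2 and 5221 in KO and 5477, 5305 and 5809 in CARM1i. The KO libraries lay below WT, and CARM1i replicate 3 lay inside the WT range. The log2 fold change was -0.15 ± 0.040 in KO (limma adjusted p = 0.004842) and -0.10 ± 0.040 in CARM1i (adjusted p = 0.09736), which passed without WT replicate 3, without CARM1i replicate 3, with quantile normalization and rescaled to a common total. Rrp9, specific to a snoRNP that guides cleavage and not methylation, went the other way. It measured 1779.5, 1705 and 1814 in WT, 2002, 2030.2 and 2049 in KO and 1779.7, 1829.8 and 1991 in CARM1i. KO lay above WT in all 3 libraries, at 0.20 ± 0.045 (adjusted p = 0.001599), and CARM1i was at 0.079 ± 0.045 (adjusted p = 0.2569). Against KO, CARM1i was at -0.12 ± 0.045 (adjusted p = 0.06324, and 0.00643 without CARM1i replicate 3).

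Box H/ACA snoRNPs turn uridine into pseudouridine and share their 4 proteins with telomerase. Dkc1 encodes dyskerin, the pseudouridine synthase (ENSMUSG00000031403.14, chromosome X, 75095854 to 75109777), and had the largest fall in KO among the 31 ribosome biogenesis genes. It measured 2397, 2359.8 and 2138 in WT, 1722, 1586 and 1638 in KO and 1883, 1903 and 2038 in CARM1i. The 3 groups did not overlap, with WT highest and KO lowest. Mean counts were 2298 ± 139.8 in WT and 1649 ± 69 in KO (SD, n = 3), which left 71.7% of the WT level (log2 fold change -0.48 ± 0.050, limma adjusted p = 3.883e-07). CARM1i, at 1941 ± 84.2, was -0.24 ± 0.050 against WT (adjusted p = 0.001953) and 0.24 ± 0.050 against KO (adjusted p = 0.001888). These 3 calls held under all 20 alternatives.

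Gar1, of the same particle, measured 340.2, 277 and 229.9 in WT, 199.9, 221 and 206 in KO and 267, 236 and 229.8 in CARM1i, with WT libraries widely spread. Its log2 fold change was -0.42 ± 0.12 in KO (limma adjusted p = 0.01068, and 0.0853 without WT replicate 1) and -0.19 ± 0.12 in CARM1i (adjusted p = 0.3151). Nop10, the small protein that holds the complex together, measured 927, 942 and 838 in WT, 1009, 1045 and 1015 in KO and 888, 982 and 929 in CARM1i. KO was highest, at 0.18 ± 0.057 (adjusted p = 0.01446), a call lost without WT replicate 3 or KO replicate 2. Nhp2, which binds the guide RNA, was at 0.042 ± 0.042 in KO (adjusted p = 0.463) and 0.031 ± 0.042 in CARM1i (adjusted p = 0.6804). Within this 4-protein particle 2 genes fell, 1 rose and 1 was not called in KO. The shares were 50% lower and 25% higher, beside 20.5% and 21.4% of all tested genes.

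Among 4 small-subunit factors, Utp20 and Rrp12 fell in KO (50%, beside 20.5% of all tested genes) and Nop14 and Wdr43 were not called. Utp20, of the complex that processes the small-subunit RNA, measured 5546, 5297 and 4827 in WT, 4737, 4651 and 4642 in KO and 4912, 4919 and 5207 in CARM1i. KO libraries lay just below the lowest WT library. Its log2 fold change was -0.16 ± 0.043 in KO (limma adjusted p = 0.006529), a call lost without the intensity trend or WT replicate 1, and -0.058 ± 0.043 in CARM1i (adjusted p = 0.401, and 0.046 without WT replicate 3). Against KO, CARM1i was at 0.10 ± 0.043 (adjusted p = 0.1078), with 0.04 without WT replicate 3 and 0.046 with quantile normalization. Rrp12, an export factor of the small subunit, was at -0.14 ± 0.046 in KO (adjusted p = 0.02279). That call ended without the intensity trend and without WT replicate 1 or 2 or KO replicate 2. Nop14 was at 0.017 ± 0.047 and Wdr43 at -0.045 ± 0.036. None of the 4 passed in CARM1i against WT by limma, edgeR or DESeq2, and none had an unadjusted p under 0.05 there. By limma 19.1% of all tested genes were called in that comparison.

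Of the 9 large-subunit factors 1 was called in KO (11.1%, beside 41.9% of all tested genes). This was Wdr12, which with Bop1 and Pes1 forms the PeBoW complex of large-subunit RNA processing. It (ENSMUSG00000026019.15, chromosome 1, 60069785 to 60098645) measured 1583, 1572 and 1553 in WT, 1770, 1872 and 1754 in KO and 1674, 1584 and 1806 in CARM1i. KO exceeded WT in every library by 0.20 ± 0.048 (limma adjusted p = 0.002952). CARM1i was at 0.10 ± 0.048 (adjusted p = 0.1538, and 0.0498 without CARM1i replicate 2) against WT and at -0.093 ± 0.048 against KO (adjusted p = 0.1845, and 0.0281 without CARM1i replicate 3). Its partners Bop1 and Pes1 were at -0.082 ± 0.047 (adjusted p = 0.175) and 0.071 ± 0.035 (adjusted p = 0.1127) in KO. The other 6, the RNA methyltransferase gene Nop2, Nop16, Rrs1, Nip7, Noc2l and the nucleostemin gene Gnl3, ranged in KO from -0.12 ± 0.061 (Rrs1) to 0.10 ± 0.058 (Nip7), and Rrs1 passed without WT replicate 3. Noc2l shares exon bases with an antisense gene, so its reads may be mixed.

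In CARM1i against WT none of the 9 passed by limma, edgeR or DESeq2, with 1 higher and 1 lower at an unadjusted p under 0.05. Of all tested genes 19.1% were called there by limma. Nop2 measured 4009, 4129 and 3744 in WT, 4016, 4011 and 3956 in KO and 3345, 3528 and 3998 in CARM1i. CARM1i replicates 1 and 2 were below every other library and replicate 3 was within the WT range. Its log2 fold change was -0.13 ± 0.052 against WT (limma adjusted p = 0.08989) and -0.14 ± 0.052 against KO (adjusted p = 0.05252), and both passed without CARM1i replicate 3 and without WT replicate 3.

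Of the other nucleolar proteins, Npm1 and Mybbp1a fell in KO (50%, beside 20.5% of all tested genes) and Ncl and Nolc1 were not called. Npm1 encodes nucleophosmin, a histone and ribosome chaperone that organizes the outer nucleolus (ENSMUSG00000057113.13, chromosome 11, 33152287 to 33163206). It measured 19289.6, 18886 and 17837 in WT, 14792, 15530.3 and 14632 in KO and 16548, 16134 and 17790 in CARM1i. WT lay above both other groups in each library, and KO below both. Npm1 fell by 0.32 ± 0.039 on the log2 scale in KO (limma adjusted p = 3.033e-06) and by 0.15 ± 0.039 in CARM1i (adjusted p = 0.01063), and CARM1i exceeded KO by 0.17 ± 0.039 (adjusted p = 0.004364). The CARM1i call ended without the intensity trend and without WT replicate 1 or 2 or CARM1i replicate 2, and the call against KO without the intensity trend. Npm1 has near-identical pseudogene copies, and since the handling of reads with several matches is not given, its level is uncertain.

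Ncl, the nucleolin gene, measured 6151, 5567 and 4999 in WT, 4997, 5204 and 4937 in KO and 5426, 5478 and 6064 in CARM1i. WT was spread more widely than KO, and CARM1i libraries lay within the WT range. Its log2 fold change was -0.14 ± 0.057 in KO (limma adjusted p = 0.06257), which passed in 6 alternatives: quantile normalization, a common total, DESeq2, a fit of WT and KO alone, and leaving out WT replicate 3 or CARM1i replicate 3. CARM1i exceeded KO by 0.16 ± 0.057 (adjusted p = 0.04787), a call lost in 8 alternatives: no intensity trend, the replicate block, and without WT replicate 2, any KO replicate, or CARM1i replicate 2 or 3. Mybbp1a, a polymerase I regulator, was at -0.087 ± 0.032 in KO (adjusted p = 0.0394), and this call was lost in 7 alternatives: no intensity trend, the replicate block, and without WT replicate 1 or 2 or any KO replicate. In CARM1i it was at -0.064 ± 0.032 (adjusted p = 0.1945, and 0.0335 without CARM1i replicate 3). Nolc1, a snoRNP chaperone, was at -0.018 ± 0.040 in KO and -0.031 ± 0.040 in CARM1i.

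**Figure D4:**
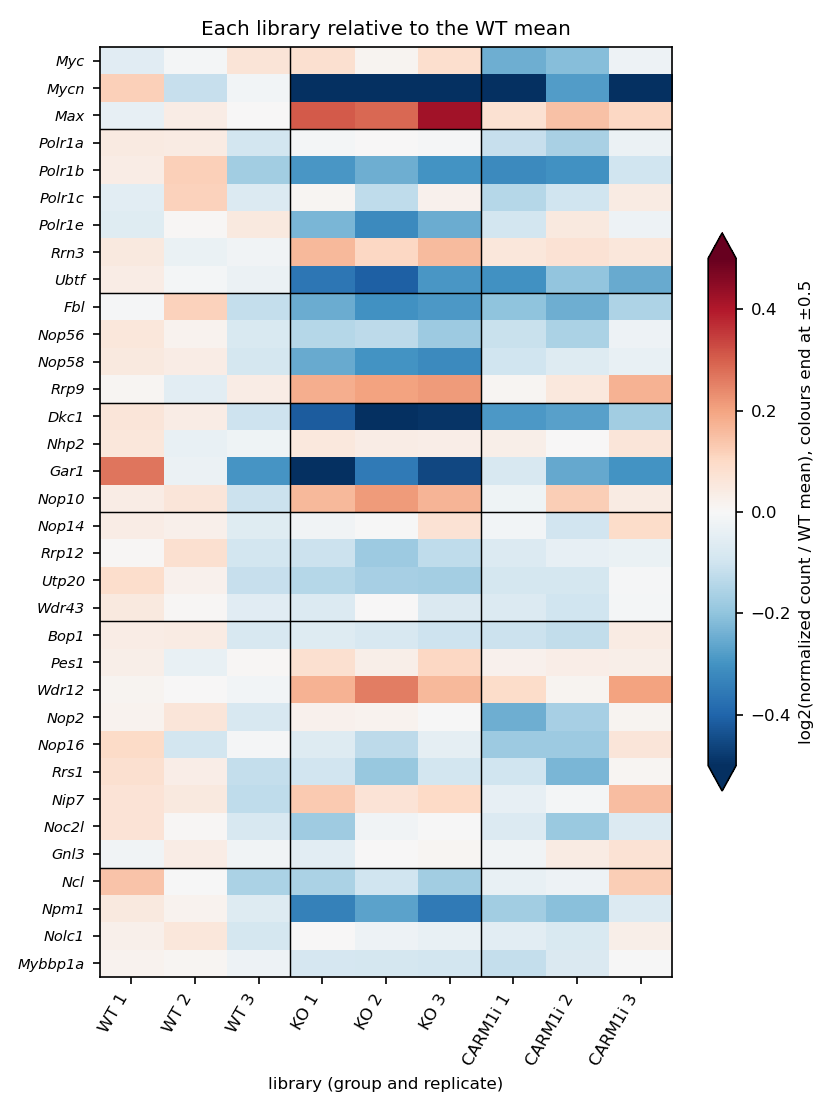
Log2 ratio of each library's normalized count to the WT mean (colour, ending at ±0.5) for the 34 genes (rows, by role) in the 9 libraries (columns). Blue runs through the 3 KO columns for Ubtf, Fbl, Nop58, Dkc1 and Npm1, and many genes are paler in CARM1i replicate 3 and bluer in WT replicate 3 than in the other libraries of those groups.

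In CARM1i against WT the 5 genes that fell were Ubtf, Dkc1, Npm1, Fbl and Polr1b. They make up 14.7% of the 34, where 19.1% of all tested genes were called in either direction. The 31 ribosome biogenesis genes summed to 110690, 108979 and 102411 normalized counts in WT, 99001, 99480.3 and 98595 in KO, and 99912, 99852 and 106986 in CARM1i. Npm1 was the largest single part of these sums, with means of 18671 in WT, 14985 in KO and 16824 in CARM1i. By summed count, WT replicate 3 was the lowest of its group and CARM1i replicate 3 the highest. Without either of these libraries 10 of the 34 fell in CARM1i, and without WT replicate 1 or 2 the count was 3 or 2. In KO 15 fell without WT replicate 3, and 9 without WT replicate 1.

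In CARM1i against KO 8 of the 34 were called, 23.5% beside 23.6% of all tested genes. Mycn, Dkc1, Nop58, Polr1e, Npm1 and Ncl were higher in CARM1i, and Myc and Max were lower. All 8 differed by less than 1.5-fold except Mycn, where 522 of the 3436 genes called over the whole set differed by at least that much. Without CARM1i replicate 3, 6 were lower and 5 higher. The comparisons of KO and CARM1i with WT share the same WT libraries, so their values are given side by side and are not independent.

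Among other genes of the pathway the share called was near that of all genes. Of 84 further ribosome biogenesis genes tested, 14 rose and 21 fell in KO (41.7% called, beside 41.9% of all genes), with a median log2 fold change of -0.038, and none changed by 1.5-fold. In CARM1i 4 rose and 10 fell (16.7% called beside 19.1%, median -0.04). By role, small-subunit genes had 8 higher and 8 lower of 38 in KO, with Rrp7a at 0.22 ± 0.036, Utp14a at 0.28 ± 0.049 and the RNA methyltransferase gene Emg1 at -0.29 ± 0.049. Large-subunit genes had 5 higher and 10 lower of 37. The former became 3 without WT replicate 3 or KO replicate 1 or 3, and the latter 4 without WT replicate 2 and 6 without KO replicate 2. Named by the smallest p were the helicase genes Ddx24 and Ddx54 at 0.22 ± 0.035 and 0.14 ± 0.032 and Mak16 at 0.18 ± 0.041. These named genes all rose, while 27% of the large-subunit list fell, 13.5% rose and its median was -0.023. Of 9 further polymerase I genes, 1 rose and 3 fell, with 2 higher without KO replicate 3 and 1 lower without WT replicate 2. Taf1d, of the promoter selectivity factor, was at -0.33 ± 0.049, the subunit gene Cd3eap at 0.23 ± 0.055 and Twistnb, another subunit gene, at -0.15 ± 0.046, a call lost without WT replicate 2 or KO replicate 2. In CARM1i 4 small-subunit genes fell, a count of 8 without CARM1i replicate 3, 1 without WT replicate 1 or 2 and 2 without CARM1i replicate 1 or 2. The 1 that rose was lost without any WT replicate, KO replicate 3 or CARM1i replicate 3. Of large-subunit genes 4 fell there, a count of 1 without WT replicate 2 or CARM1i replicate 2 and 2 without WT replicate 1. The 3 that rose became 0 without WT replicate 2 or 3 or CARM1i replicate 3, and 1 without WT replicate 1, KO replicate 2 or 3 or CARM1i replicate 2. The 2 polymerase I genes that fell became 0 without WT replicate 1 or 2 or CARM1i replicate 1 or 2, and 1 without any KO replicate.

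Host transcripts carry snoRNAs in their introns. Of 11 tested, 7 fell and 1 rose in KO (63.6% and 9.09%, beside 20.5% and 21.4% of all genes, median -0.34), and 3 fell in CARM1i (27.3% beside 8.59%, median -0.085). Snhg1 went from 1488 ± 25.9 in WT to 947 ± 23.4 in KO and 1163 ± 55.7 in CARM1i (log2 fold changes -0.65 ± 0.048 and -0.36 ± 0.048). Gas5, a host transcript that accumulates when growth stops in many cells, went from 2071 ± 61.8 to 1431 ± 6.65 and 1592 ± 57 (-0.53 ± 0.042 and -0.38 ± 0.042). Snhg5 was at -0.65 ± 0.076 in KO. Snhg1 and Gas5 passed in both comparisons with WT under all 20 alternatives.

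In the wider Myc network 5 of 15 genes rose and 3 fell in KO (53.3% called beside 41.9% of all genes, median 0.018). In CARM1i 2 rose and 4 fell (40% called beside 19.1%), with 1 higher without WT replicate 2 or 3 or CARM1i replicate 1 or 2. Mxd3, a Max partner expressed in dividing cells, went from 484 ± 25.9 to 263 ± 21.2 in KO (-0.88 ± 0.084) and 360.3 ± 19.4 in CARM1i. Mlx, the partner of the glucose-sensing members of this network, rose from 992 ± 24.5 to 1339 ± 56 (0.43 ± 0.055). Aurka, a mitotic kinase that stabilizes the Mycn protein, went from 1023 ± 22.8 to 559.5 ± 50.4 (-0.87 ± 0.063). Mycl, the third Myc gene, named after its values were seen, went from 379.8 ± 4.08 to 215 ± 6.95 in KO and 233 ± 47.5 in CARM1i (-0.82 ± 0.12 and -0.72 ± 0.12, limma adjusted p = 2.549e-05 and 0.0003127).

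Of 20 textbook Myc targets outside the nucleolus, 13 fell and 3 rose in KO (65% and 15%, beside 20.5% and 21.4% of all genes, median -0.16). In CARM1i 5 fell and none rose by limma (25% lower beside 8.59%, and 0% higher beside 10.5%, median -0.066), where edgeR and DESeq2 also called none higher and 1 was higher at an unadjusted p under 0.05. The CARM1i count was 9 without WT replicate 3, 3 without WT replicate 2, 1 without WT replicate 1 or CARM1i replicate 1, and 0 without the intensity trend. Ptma, a chromatin-associated prothymosin, went from 35251 ± 1719.8 to 26237 ± 628 in KO (-0.43 ± 0.042), and Cdca7 from 576 ± 62 to 302 ± 59.5 (-0.94 ± 0.12). Ccnd2, a cyclin gene, rose from 6755 ± 219 to 9626 ± 308 (0.51 ± 0.040). In the same libraries 16 of 16 proliferation genes fell in KO (median -1.11) and in CARM1i (median -0.43). Their summed normalized count was 68051 to 71973 in WT, 31973 to 33299.8 in KO and 51671 to 54549 in CARM1i. Their part in the changes of the 34 genes was not tested.

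**Figure D5:**
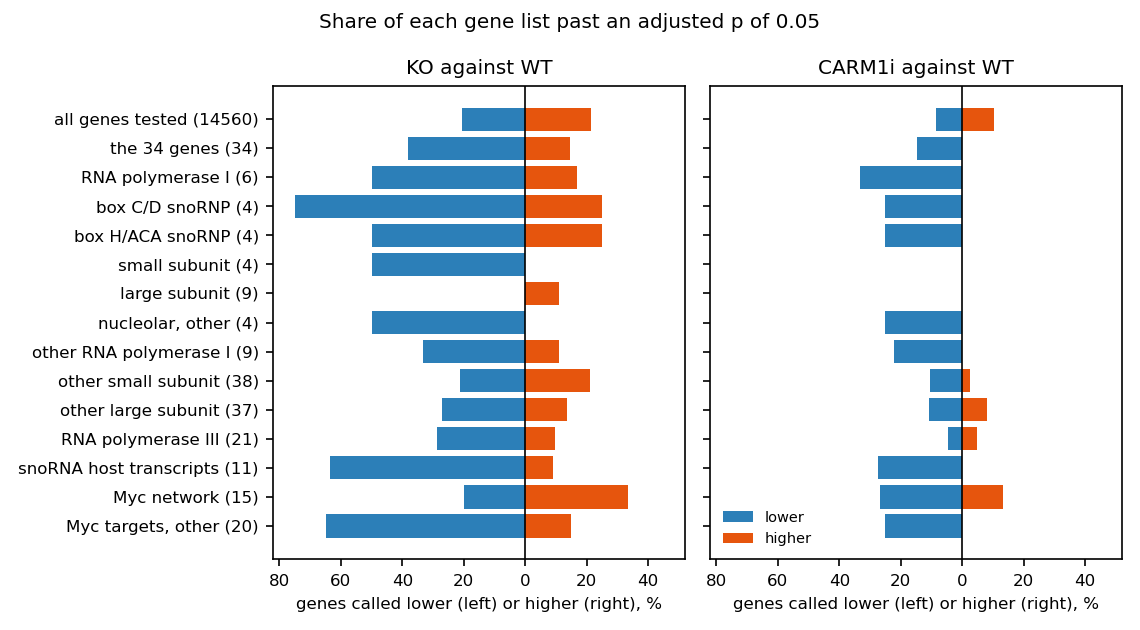
Share of each gene list (number of tested genes in brackets) called lower (blue, left) or higher (orange, right) than WT at an adjusted p under 0.05, in KO and in CARM1i. In KO the bars of the box C/D, snoRNA host and other Myc target lists reach furthest left (proliferation genes are not drawn), the 9 large-subunit genes have no bar on the left, and all tested genes stand at 20.5% lower and 21.4% higher.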

How the data were processed

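RNA was measured in 9 libraries of mouse embryonic fibroblasts, grouped by title. Per the labels' protocols, polyadenylated RNA went into an Illumina kit that keeps strand. Build mm10, HTSeq 0.6.0, DESeq 1.18.0 and TopHat2 2.0.10 come from the submitters' processing notes. Not given in the sources used here: annotation release, strand setting of the counting, handling of reads with several matches. Deposited by the authors was a normalized signal per gene and library: read counts divided by a size factor. All values were whole multiples of 1 read's value (100% within 1e-06 of a read), so reads were recovered by division. Symbols, positions and exon lengths come from GENCODE M21 on the same build; 16413 of 16428 IDs matched without version.

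The test was limma 3.58.1 (R 4.3.3) with its trend option, fitted to log2(value + 1), a scale that understates changes of low genes. All 9 libraries entered 1 fit, genes with a mean under 10 were left out, and Benjamini-Hochberg adjustment ran over all 14560 others, with a threshold of 0.05. The procedure was also run on simulated data with 200 changed genes. No outcome of that run is given here, so it does not back the calls of the 34 genes. How well changes as small as theirs are recovered is not shown. Alternatives were other filters, pseudocounts and scalings, edgeR 4.0.16 and DESeq2 1.42.0 on recovered reads, no trend, only the compared groups, a replicate block and leaving out each library. The genes and lists were chosen with earlier results of these data known. Named are the 34 genes, Carm1 and up to 3 genes per pathway list by smallest adjusted p in KO, except where stated.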

Additional observations from a re-analysis of the deposited data

How the results depend on the processing

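Of the 34 genes, 18 were called in KO against WT, and 13 of these calls held under all 20 alternatives; the others were those of Gar1, Nop10, Rrp12, Utp20 and Mybbp1a. In CARM1i against WT 2 of 5 calls held (Ubtf and Dkc1), and in CARM1i against KO 4 of 8. No called gene changed direction. In CARM1i against WT 8 genes of the 34 fell with quantile normalization and 2 without the intensity trend, where 1018 and 779 of all genes were higher and lower; in CARM1i against KO 1 was lower without the trend. Leaving out each library in turn gave 2 to 10 of the 34 lower and 0 to 1 higher in CARM1i against WT, and 2 to 6 lower in CARM1i against KO. Over all genes it gave 806 to 1207 lower in CARM1i against WT. The cause was not tested. Same-numbered libraries did not deviate together (correlations -0.087 to 0.0268). With 3 libraries per group, this cannot show that the same number means no shared culture or batch. With the replicate block 12 of the 34 fell and 5 rose in KO, 6 fell in CARM1i, and 5 were higher and 2 lower in CARM1i against KO; over all genes the block called 2983 higher and 2882 lower in KO, 1430 and 1123 in CARM1i, and 1619 and 1537 in CARM1i against KO. Rescaling to a common total called 2837 higher and 3285 lower in KO. With 3 libraries per group and changes of under 1.5-fold, a gene that was not called may still differ.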

Other observations

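RNA polymerase III makes transfer RNA and the smallest ribosomal RNA. Of 21 genes for its subunits and factors, 6 fell and 2 rose in KO (38.1% called beside 41.9% of all genes, median -0.044), and 1 fell and 1 rose in CARM1i (9.52% beside 19.1%). The 2 higher in KO became 1 without WT replicate 2 or 3, any KO replicate or CARM1i replicate 2, and the 1 higher in CARM1i was lost without WT replicate 2 or CARM1i replicate 3. Gtf3a, the factor specific to the gene of that ribosomal RNA, went from 1756 ± 50.4 in WT to 1383 ± 60.3 in KO (-0.34 ± 0.047) and 1538 ± 70.8 in CARM1i (-0.19 ± 0.047). Gtf3c1, the largest subunit of the factor that binds transfer RNA genes, rose from 5799 ± 89.3 to 6807 ± 146 (0.23 ± 0.032), while Gtf3c3 of the same factor was at -0.19 ± 0.040.

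The 34 genes lie on 19 chromosomes. In GENCODE M21, 6 of them hold snoRNA genes within their span, 19 in all: Nop56, Nop58, Dkc1, Wdr43, Gnl3 and Ncl. Of these Nop56, Nop58 and Dkc1 fell in KO and Wdr43, Gnl3 and Ncl were not called. In that comparison 20.5% of all tested genes and 38.2% of the 34 fell. Whether holding a snoRNA gene goes with a call was not tested. Exons of 13 of the 34 overlap exons of an antisense gene, at most 5.27% of exon bases (Nop14) for all but Noc2l. Noc2l has 20.9% of its exon bases overlapping Samd11, and since the strand setting of the counting is not given, reads of the 2 genes may be mixed.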
